A study of Arabidopsis thaliana with 16 samples.

Results

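Transcripts of the plastid genome were read in Arabidopsis thaliana seedlings through one run of consecutive probe set identifiers of the ATH1 array, the block laid out for the chloroplast genome. This block held 89 of the 22810 probe sets of the array, and 76 of the 89 were bright enough to be tested. The annotation of the array listed plastid genes for 67 of the 89, covering 66 genes, and 66 of these 67 probe sets were tested. The one left out was that of ycf2. Of the 67, 59 list 1 gene and 8 list a pair of entries of the same gene, as for rpl2, rpl23, ndhB and rps7, which the plastid genome carries in its inverted repeat. The block is not purely plastid: 6 of its probe sets carry mitochondrial gene names, 2 are assigned to genes of chromosome 2 and 14 have no gene listed. The 66 tested plastid probe sets are the members described here. A further 10 plastid genes (psbA, psbI, psbJ, psbK, psbL, atpA, atpF, atpH, matK and rps16) have probe sets outside the block and are given for comparison.

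Whole seedlings of the Wassilewskija accession (WS, wild type) were compared with lhy-21 cca1-11 double mutants in that background, written lhy cca1, which carry T-DNA insertions in LHY and CCA1. LHY and CCA1 are dawn-expressed Myb-type transcription factors of the circadian clock. Seedlings of both genotypes were 9 days old, had spent 4 days at 4 °C in the dark, and had grown on medium with 3% sucrose at 22 °C with 18 h of light (60 to 65 µE) and 6 h of darkness a day. Plants of each genotype were harvested at 4 times: 15 min ahead of dawn, and then 15, 30 and 60 min past it. Each genotype and time has 2 arrays, which makes 16 in all. No sample stayed in darkness past dawn, so light and time of day cannot be told apart. The labels do not say whether replicates were grown apart, so the p-values cover only the spread among the samples used. Neither mutated gene was named in the annotation used here, so the genotype labels were not checked through them.

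The plastid genome encodes core subunits of photosystem I (PSI), photosystem II (PSII), the cytochrome b6f complex, ATP synthase and the NADH dehydrogenase-like (NDH) complex, as well as the large subunit of Rubisco. It also encodes part of the plastid ribosome and the core of the bacterial-type plastid RNA polymerase, which works with sigma factors and other proteins made from nuclear genes. A nuclear-encoded, phage-type polymerase transcribes plastid genes too, and many plastid genes are transcribed together as polycistronic units and then processed. Plastid transcripts mostly lack stable poly(A) tails, whereas one-cycle array labelling starts from an oligo(dT) primer. The signals are therefore those of this labelling, and in whole seedlings fewer plastids and less RNA per plastid cannot be told apart.

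Deposited signals had been scaled per array. Array medians lay between 33.6 and 38.3, and replicate arrays correlated at 0.961 to 0.981 over all tested probe sets on the log2 scale. The 25S ribosomal RNA control, another RNA without a stable poly(A) tail, separated some arrays. Its log2 signal was 8.01 to 9.15 on the 4 lhy cca1 replicate 2 arrays, 5.97 to 7.98 on the 4 lhy cca1 replicate 1 arrays and 5.85 to 7.35 on the 8 WS arrays. Counts of members called, and the differences of some members, are therefore also given with this control as a covariate and without those 4 arrays. Of 9 green tissue markers listed, 1 had a named probe set, that of Rubisco activase (RCA), at 6028 to 7186 in WS and 5613 to 7825 in lhy cca1. Of 8 root markers, only EXPA7 was named, and it was near the floor of the array at 8.66 to 40.4 in WS and 1.39 to 24.3 in lhy cca1.

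Averaged over the 4 times, 36 of the 66 members were higher in lhy cca1 than in WS, none was lower and 30 did not pass, with limma at a Benjamini-Hochberg adjusted p under 0.05. Over all 14878 tested probe sets the same rule called 10.9% higher and 7.35% lower. The median difference of the members was 0.40 on the log2 scale, where 1 is a 2-fold difference, against 0.024 over all tested probe sets. The fitted difference was above 0 for 62 of the 66 members (93.9%) and for 54.7% of all tested probe sets. It lay below 0 for petN, rps4, rpoA and rps18. With each array centred on its median, 26 of the 66 were higher against 6.86% of all tested probe sets. That centring also turned the calls over the array from 1616 higher of 2709 to 1021 higher of 3233.

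The difference was not even over the arrays. The mean log2 signal of the 66 members was 8.82 to 9.34 on the 8 WS arrays and 9.04 to 9.98 on the 8 lhy cca1 arrays. Between arrays of the same replicate number, lhy cca1 minus WS in replicate 1 was 0.22 before dawn and 0.86, 0.21 and 0.12 at the 3 times after it. In replicate 2 it was 0.51 before dawn and then 0.64, 0.47 and 0.47. All 8 of these differences were above 0, and they were larger in replicate 2 at every time but 15 min. The labels do not tie arrays of one number together, and before dawn lhy cca1 replicate 1 (9.04) lay below WS replicate 2 (9.24). The number of members whose signal exceeded every WS array was 6, 47, 17 and 14 on the replicate 1 arrays of lhy cca1 at the 4 times in order. It was 46, 57, 36 and 39 on the replicate 2 arrays at the same times. The same counts were not made over all tested probe sets, so these do not set the members apart from the array. The plastid mean exceeded that of every WS array on both 15 min arrays and on all 4 replicate 2 arrays of lhy cca1. These were also the arrays with a log2 25S rRNA signal of 7.98 or more. Within WS the 2 signals did not rise together. Replicate 2 before dawn and at 15 min had low 25S rRNA signals (5.85 and 6.15) and the highest plastid means of WS (9.24 and 9.34). Replicate 1 at 15 min, at 6.16, had a plastid mean of 8.96. The WS arrays of highest 25S rRNA signal (7.35 and 7.15) had plastid means of 9.01 and 8.82.

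**Figure D1:**
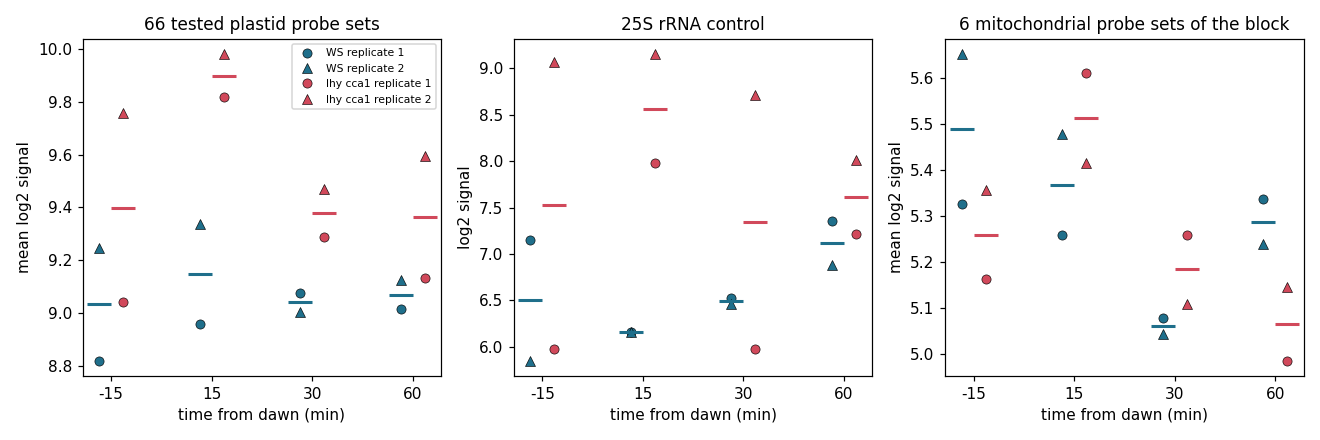
Mean log2 signal of the 66 tested plastid probe sets, log2 signal of the 25S rRNA control and mean log2 signal of the 6 mitochondrial probe sets of the block (y axes) against time from dawn in minutes, 1 point per array and short bars for the mean of the 2 arrays. The plastid mean is highest on the lhy cca1 arrays at 15 min (9.82 and 9.98), and the replicate 2 arrays of lhy cca1 (triangles) lie at 8.01 or above for 25S rRNA, while the mitochondrial means of the genotypes overlap at 4.98 to 5.65.

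The number of members called depended on these arrays. With the 25S rRNA signal as a covariate, 6 of 66 members were higher (ndhE, ndhG, ndhA, rpl14, rpl16 and ycf4), beside 4.91% of all tested probe sets, and the members' median difference was 0.25. Without the 4 lhy cca1 replicate 2 arrays, 3 were higher (ndhE, rpl14 and rpl16), beside 3.57% of all, with a median of 0.23. Without the 15 min arrays, 7 were higher (ndhE, ndhI, rpl16, atpI, psaA, ndhK and ycf4), beside 5.87%, with a median of 0.31. The other members called in the full fit did not pass in the fit concerned. The replicate 1 arrays alone called 7, beside 3.1%, and the replicate 2 arrays alone called 45, beside 8.37%. The members' median stayed above that of all tested probe sets in each of these fits, while the share of members called without the lhy cca1 replicate 2 arrays came near the background. Leaving out any 1 array left between 26 and 45 members called. Of the 36 members called in the full fit, 22 passed in all 16 fits that left out 1 array. What part the rRNA content of the samples has in the plastid difference was not tested.

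**Figure D2:**
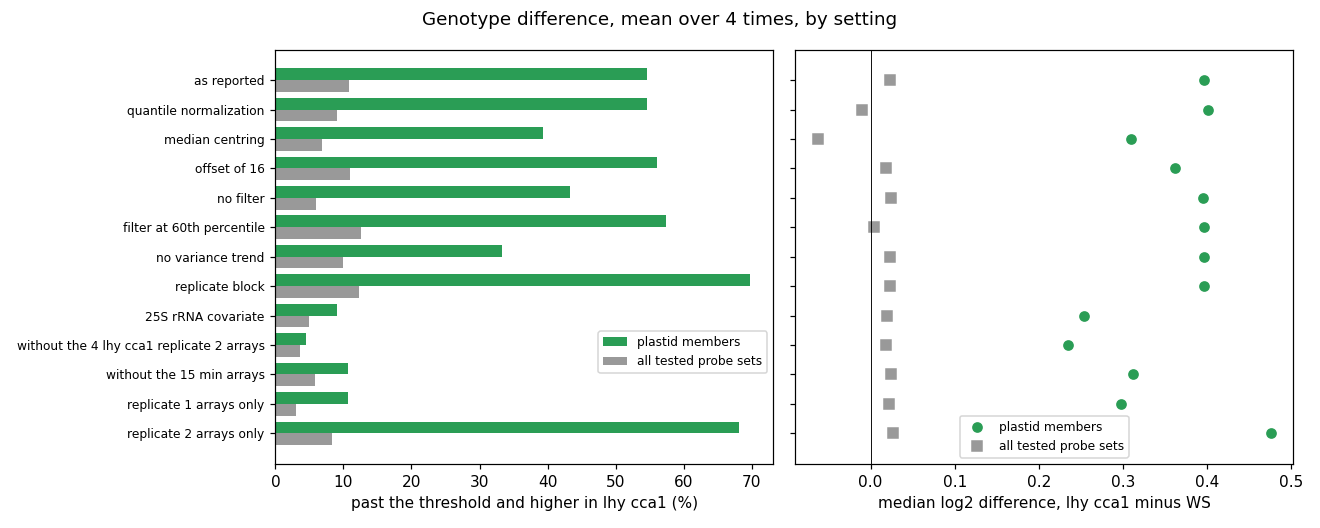
Left, the percentage of the plastid members (green) and of all tested probe sets (grey) that passed the threshold and were higher in lhy cca1, and right, the median log2 difference of the same sets, by setting. The bars of the plastid members drop toward the grey bars in the fits with the 25S rRNA covariate and without the 4 lhy cca1 replicate 2 arrays, while their median stays at 0.23 or above.

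PSI was the one function class in which every tested member passed. All 5 probe sets were higher in lhy cca1, with a median difference of 0.36, which was below the 0.40 of all 66 members. None of the 5 was called with the 25S rRNA covariate or without the lhy cca1 replicate 2 arrays. The probe set of psaA, which encodes one of the reaction centre proteins, gave WS signals of 630.1 and 679 before dawn, then 721 and 1219 (15 min), 776 and 927 (30 min) and lastly 614 and 1107 (60 min), for replicates 1 and 2 in turn as in all such pairs below. In lhy cca1 it read 899 and 2096 before dawn, then 2047 and 2188 (15 min), 1099.6 and 1536 (30 min) and lastly 1064 and 1906 (60 min). Both lhy cca1 arrays lay above both WS arrays before dawn, at 15 min and at 30 min, whereas at 60 min WS replicate 2 exceeded lhy cca1 replicate 1. The psaA difference was 0.91 ± 0.177 (adjusted p = 0.00192). It was 0.61 ± 0.185 (adjusted p = 0.0552) with the 25S rRNA covariate and 0.58 ± 0.163 (adjusted p = 0.0578) without the lhy cca1 replicate 2 arrays, so that the call was lost in both. For psaB, its partner in the reaction centre, signals ran from 3866 to 5213 with a median of 4284 in WS and from 4360.0 to 7098 with a median of 5609 in lhy cca1, a difference of 0.36 ± 0.096 (adjusted p = 0.0156).

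The small PSI subunit gene psaJ was the only member whose arrays did not overlap between genotypes. It read 2597 and 2680.4 before dawn, then 2078 and 2483 (15 min), 2691 and 2479.7 (30 min) and lastly 2724 and 2503 (60 min) in WS. The lhy cca1 values were 2761 and 3864 before dawn, then 2884 and 4354 (15 min), 2944 and 3014 (30 min) and lastly 2890.4 and 2804 (60 min). The lowest lhy cca1 array, at 2761, stood just above the highest WS array, at 2724. Such a separation of 8 from 8 arrays was seen for 1.5% of all tested probe sets. A single member of 66 is about the same share, so the separation does not set the members apart from the array. The fitted difference of psaJ was small, at 0.32 ± 0.0867 (adjusted p = 0.0166). Another small subunit gene, psaI, differed by 0.28 ± 0.0908 (adjusted p = 0.0426) and psaC, whose product carries the terminal iron-sulfur clusters, by 0.48 ± 0.109 (adjusted p = 0.00525). The call for psaI was lost in 10 of 16 fits that left out 1 array, while those for psaA, psaB, psaC and psaJ were kept in all 16.

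Among the 10 PSII members, 6 were higher and 4 did not pass, with a median of 0.38. psbD and psbC encode the reaction centre protein D2 and the antenna protein CP43, and they lie next to each other in the plastid genome with psbZ, a small subunit, beside them. For psbD the signal in WS was 115 and 174 before dawn, then 128 and 231 (15 min), 148 and 126 (30 min) and lastly 153 and 162 (60 min). In lhy cca1 the same probe set gave 163 and 686 before dawn, then 469 and 479 (15 min), 189.7 and 341 (30 min) and lastly 168 and 392 (60 min). Replicate 2 of lhy cca1 before dawn stood highest, and replicate 1 of lhy cca1 lay within the WS range at every time but 15 min. The difference was 1.08 ± 0.248 (adjusted p = 0.00625) for psbD, and psbC differed by 0.92 ± 0.262 (adjusted p = 0.0226) and psbZ by 0.41 ± 0.113 (adjusted p = 0.0169). Without the lhy cca1 replicate 2 arrays the psbD difference was 0.56 ± 0.159 (adjusted p = 0.0627), and with the 25S rRNA covariate 0.57 ± 0.229 (adjusted p = 0.152).

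The other PSII genes divided. Among psbB and its neighbours, the small subunit genes psbT and psbH were higher, by 0.45 ± 0.133 and 0.34 ± 0.0846. The gene psbN, whose product assists PSII assembly, was also higher, by 0.69 ± 0.215. For psbB, which encodes the antenna protein CP47, the difference was 0.20 ± 0.152 (adjusted p = 0.407). The cytochrome b559 genes psbE and psbF gave 0.0057 ± 0.0711 (adjusted p = 0.97) and 0.078 ± 0.0731 (adjusted p = 0.504), and the sign of psbE turned with median centring, to -0.081, and in the replicate 2 arrays alone, to -0.13. For psbE the WS arrays spanned 1385 to 2388 with a median of 1794 and the lhy cca1 arrays 1689 to 1992 with a median of 1838, so that the lhy cca1 values lay inside the WS range. The small subunit gene psbM differed by 0.28 ± 0.117 (adjusted p = 0.11).

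The gene psbA, which encodes the reaction centre protein D1 and whose probe set lies outside the block, did not pass at 0.11 ± 0.125 (adjusted p = 0.597). Its sign turned with the 25S rRNA covariate, to -0.14. Of all 10 plastid probe sets outside the block, 3 were higher (psbK at 0.83 ± 0.217, atpF at 1.20 ± 0.356 and atpH at 0.64 ± 0.212) and 7 did not pass. Their median was 0.39, close to the 0.40 of the members of the block. Here psbK kept its call in all 16 fits without 1 array, whereas atpF lost it in 7 and atpH in 11.

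In the cytochrome b6f complex, which passes electrons between the photosystems, 1 of 6 members was higher and the median was 0.31. This was petD, the gene of subunit IV, with signals of 22.5 to 49.3 with a median of 34.6 in WS and 32.6 to 58.8 with a median of 47.2 in lhy cca1. Its difference was 0.40 ± 0.123 (adjusted p = 0.0349), and the call was lost in 12 of 16 fits that left out 1 array. Neither petA, for cytochrome f, nor petB, for cytochrome b6, passed, at 0.22 ± 0.0924 (adjusted p = 0.115) and 0.085 ± 0.0593 (adjusted p = 0.36), and the sign of petB turned with quantile normalization and with median centring. The small subunit gene petG had the largest difference of all members, 1.67 ± 0.618 (adjusted p = 0.0717). Its probe set spanned 9.28 to 113 with a median of 12.0 in WS and 12.5 to 273 with a median of 89.0 in lhy cca1, so that arrays of one genotype differed severalfold. In 2 of the 8 groups petG lay below the 40th percentile of its arrays. The difference was 0.58 ± 0.199 (adjusted p = 0.0541) for petL and -0.14 ± 0.155 (adjusted p = 0.594) for petN.

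The 3 ATP synthase members of the block had a median difference of 0.21. The atpI gene, for a subunit of the membrane part of the enzyme, was higher by 0.49 ± 0.123 (adjusted p = 0.0102), with a range of 40.8 to 70.7 with a median of 52.2 in WS and 57.1 to 135 with a median of 70.1 in lhy cca1. The genes of the catalytic part did not pass: atpB, for the beta subunit, differed by 0.078 ± 0.0704 (adjusted p = 0.483), and atpE, for the epsilon subunit, by 0.21 ± 0.0827 (adjusted p = 0.0953). In the genome atpI lies beside atpH and atpF, which were higher, and atpA, which was not called at 0.73 ± 0.283 (adjusted p = 0.0853), while atpB and atpE form a unit of their own elsewhere. The sign of the atpB difference was negative under quantile normalization, median centring, the 25S rRNA covariate, without the lhy cca1 replicate 2 arrays and with the replicate 1 arrays alone.

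The gene rbcL, which encodes the large subunit of Rubisco, lies next to atpB. It read 252 and 277 before dawn, then 203 and 278 (15 min), 235 and 263 (30 min) and lastly 234 and 348 (60 min) in WS. In lhy cca1 the signals were 176 and 623 before dawn, then 750.5 and 709 (15 min), 303 and 444 (30 min) and lastly 272 and 667 (60 min). The lowest of the 16 arrays was lhy cca1 replicate 1 before dawn and the highest lhy cca1 replicate 1 at 15 min, so its signal varied strongly between arrays of one genotype and replicate number. Its difference over the 4 times was 0.77 ± 0.219 (adjusted p = 0.0216). It was 0.33 ± 0.208 (adjusted p = 0.378) with the 25S rRNA covariate and 0.32 ± 0.124 (adjusted p = 0.158) without the lhy cca1 replicate 2 arrays.

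The NDH complex, which takes part in cyclic electron flow around PSI, had 7 of 11 members higher and a median of 0.39. Of the 66 members, ndhE alone was called in all 4 of the fits above that made 7 or fewer calls. It read 323 and 258 before dawn, then 378 and 558 (15 min), 323 and 302 (30 min) and lastly 256 and 384 (60 min) in WS. The lhy cca1 arrays gave 388 and 540.0 before dawn, then 819 and 729.7 (15 min), 575 and 444 (30 min) and lastly 420.4 and 559 (60 min). At each time both lhy cca1 arrays lay above both WS arrays, although WS replicate 2 at 15 min exceeded lhy cca1 arrays of other times. The ndhE difference was 0.69 ± 0.114 (adjusted p = 0.00056). It was 0.64 ± 0.144 (adjusted p = 0.0118) with the 25S rRNA covariate, 0.64 ± 0.134 (adjusted p = 0.0169) without the lhy cca1 replicate 2 arrays and 0.66 ± 0.127 (adjusted p = 0.00449) without the 15 min arrays.

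Next to ndhE in the genome lie ndhG, ndhI, ndhA and ndhH, and all of these were higher, by 0.37 ± 0.101, 0.39 ± 0.0895, 0.51 ± 0.0979 and 0.62 ± 0.173. The ndhD gene, separated from ndhE by psaC, differed by 0.18 ± 0.0828 (adjusted p = 0.158) and did not pass. A further unit holds ndhC, ndhK and ndhJ. Of these, ndhK and ndhJ were higher by 0.98 ± 0.21 (adjusted p = 0.00375) and 0.78 ± 0.173 (adjusted p = 0.00504), but ndhC gave 0.13 ± 0.0664 (adjusted p = 0.195). The ndhK arrays spanned 148 to 339 with a median of 226 in WS and 227 to 715 with a median of 484 in lhy cca1. Neither ndhB nor ndhF passed, at 0.30 ± 0.235 (adjusted p = 0.413) and 0.19 ± 0.219 (adjusted p = 0.609), and their signals lay near the 40th percentile of the arrays, with WS medians of 17.4 and 21.4 against 19.1 to 22.0 for that percentile.

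**Figure D3:**
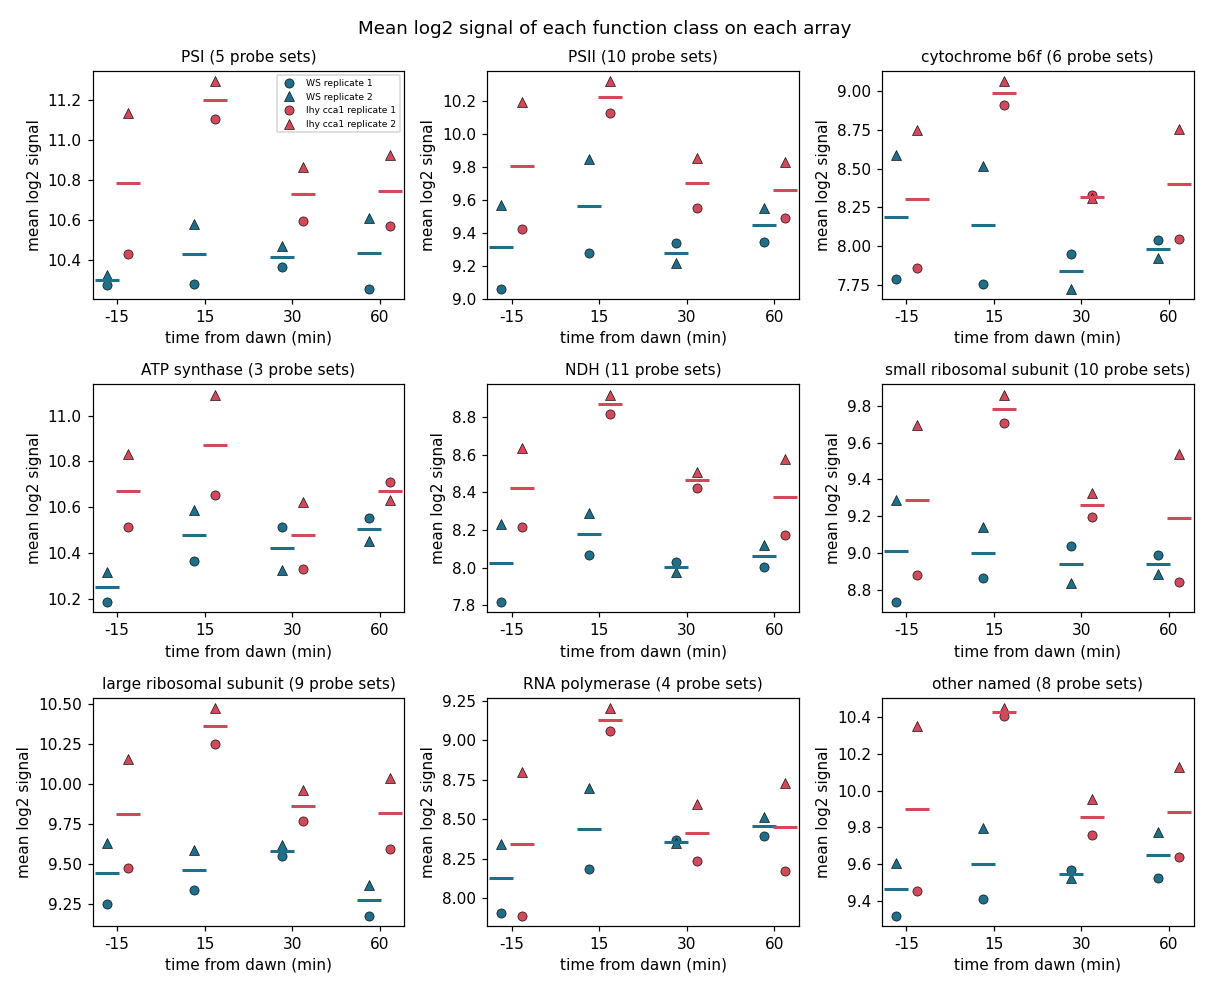
Mean log2 signal (y axis) of the tested members of each function class against time from dawn in minutes, with 1 point per array (circles replicate 1, triangles replicate 2, blue WS, red lhy cca1) and short bars for the mean of the 2 arrays. In each class the highest of the 16 arrays is lhy cca1 replicate 2 at 15 min, and in most classes the lhy cca1 replicate 1 arrays outside 15 min lie closer to WS.

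Ribosomal protein genes were higher for 7 of 9 members of the large subunit (median 0.43) and 4 of 10 of the small subunit (median 0.44). The genes rpl16 and rpl14 are neighbours and had the largest called differences among the large subunit genes. The rpl16 probe set read 239.9 and 259 before dawn, then 286 and 327 (15 min), 342 and 338 (30 min) and lastly 253 and 287 (60 min) in WS. Its lhy cca1 signals were 278 and 884 before dawn, then 878 and 980.1 (15 min), 397 and 576 (30 min) and lastly 357 and 788 (60 min). At every time lhy cca1 exceeded WS of the same replicate number, and the ratio was smaller in replicate 1 than in replicate 2 except at 15 min. The rpl16 difference was 1.02 ± 0.192 (adjusted p = 0.00151). It was 0.59 ± 0.164 (adjusted p = 0.0372) with the 25S rRNA covariate and 0.58 ± 0.0858 (adjusted p = 0.00258) without the lhy cca1 replicate 2 arrays.

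The rpl14 probe set gave 99.2 and 148 before dawn, then 99.0 and 121 (15 min), 136 and 172 (30 min) and lastly 90.4 and 119 (60 min) in WS. In lhy cca1 it gave 101 and 207 before dawn, then 389 and 379.5 (15 min), 193 and 234 (30 min) and lastly 145 and 268 (60 min). The 15 min arrays of lhy cca1 were the highest, and before dawn the genotypes overlapped. Its difference was 0.87 ± 0.153 (adjusted p = 0.000894), and 0.66 ± 0.173 (adjusted p = 0.0283) with the 25S rRNA covariate. Without the lhy cca1 replicate 2 arrays it was 0.60 ± 0.136 (adjusted p = 0.0247). The genes rpl23 and rpl2, which lie together in the inverted repeat, were higher by 0.66 ± 0.145 and 0.43 ± 0.0993. Also, rpl32 was higher by 0.37 ± 0.0785, rpl22 by 0.31 ± 0.0718 and rpl20 by 0.59 ± 0.192. Neither rpl36 nor rpl33 passed, at 0.42 ± 0.171 (adjusted p = 0.0969) and 0.075 ± 0.0872 (adjusted p = 0.604).

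In the small subunit, both probe sets of rps12, a gene whose transcript is trans-spliced from separate pieces, were higher by 0.71 ± 0.198 and 0.76 ± 0.242. The rps15 gene was higher by 0.73 ± 0.197 (adjusted p = 0.0161) and rps3 by 0.21 ± 0.0666 (adjusted p = 0.0381). The genes rps7, rps19, rps2 and rps14 had differences of 0.55, 0.32, 0.30 and 0.60 and did not pass, and rps14 was below the 40th percentile in 2 of the 8 groups. The remaining pair had differences near 0: rps18 at -0.00092 ± 0.0708 (adjusted p = 0.995) and rps4 at -0.088 ± 0.0682 (adjusted p = 0.411). The genes rps18 and rpl33 lie next to each other, and both ran near 0, rpl33 turning to -0.011 with median centring and to -0.060 in the replicate 1 arrays alone. The rps4 probe set spanned 5503 to 7374 with a median of 6427 in WS and 5343 to 6785 with a median of 5938 in lhy cca1.

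The RNA polymerase was the class with no member called. The 4 genes rpoA, rpoB, rpoC1 and rpoC2 encode the alpha, beta, beta′ and beta″ subunits of the plastid's own polymerase. The rpoA probe set read 1643 and 1944 before dawn, then 1577 and 1752 (15 min), 1815 and 1713 (30 min) and lastly 2189.7 and 1605 (60 min) in WS. The lhy cca1 values were 1566 and 1778 before dawn, then 1968 and 2316 (15 min), 1430.0 and 1947 (30 min) and lastly 1484 and 1515 (60 min). The arrays of the genotypes interleaved, with lhy cca1 higher than WS at 15 min, lower in each same-number pair before dawn and at 60 min, and divided at 30 min. The difference was -0.035 ± 0.082 (adjusted p = 0.817). It was 0.40 ± 0.183 (adjusted p = 0.147) for rpoB, 0.21 ± 0.109 (adjusted p = 0.193) for rpoC1 and 0.38 ± 0.23 (adjusted p = 0.279) for rpoC2. The class median was 0.30, and it turned to -0.017 without the lhy cca1 replicate 2 arrays, a fit that kept the WS replicate 2 arrays. That rpoA differed from the other members was not tested.

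Of the 8 other named members, 5 were higher, with a median of 0.45. These were rbcL, the PSI assembly genes ycf4 (0.47 ± 0.0901, adjusted p = 0.00163) and ycf3 (0.59 ± 0.173, adjusted p = 0.0263), the envelope protein gene cemA (0.42 ± 0.0976, adjusted p = 0.00648) and ycf1 (0.40 ± 0.0831, adjusted p = 0.00326), whose product has been assigned to the import machinery of the envelope. The ycf4 gene kept its call with the 25S rRNA covariate, at 0.32 ± 0.0944 (adjusted p = 0.0496), but not without the lhy cca1 replicate 2 arrays, at 0.31 ± 0.0904 (adjusted p = 0.0657). The genes accD, for a subunit of acetyl-CoA carboxylase, clpP, for the plastid protease, and ccsA, for cytochrome c assembly, did not pass at 0.64 ± 0.225 (adjusted p = 0.059), 0.20 ± 0.0828 (adjusted p = 0.106) and 0.12 ± 0.0857 (adjusted p = 0.349).

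**Figure D4:**
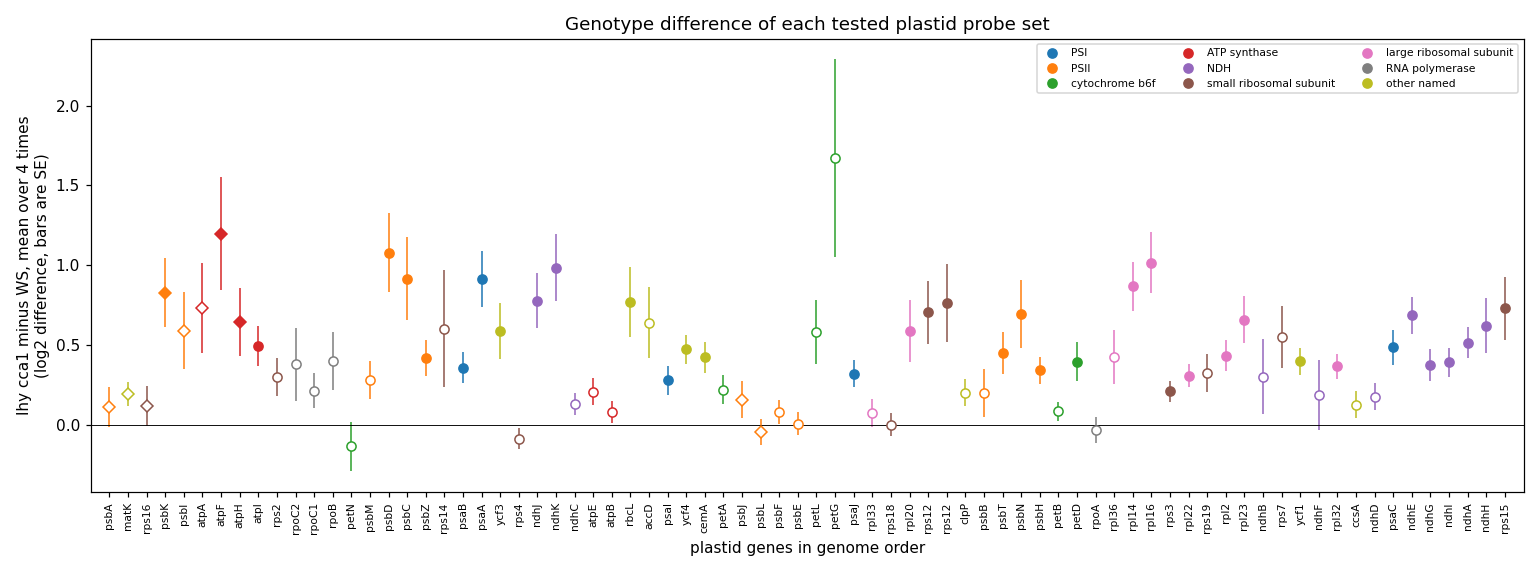
Log2 difference, lhy cca1 minus WS as the mean over 4 times (y axis, bars are standard errors), of each tested plastid probe set in genome order (x axis), coloured by function class. Filled symbols passed the threshold, and diamonds lie outside the identifier block. Of the 66 members 62 lie above 0, among them runs of neighbours such as psbD, psbC and psbZ or ndhE to ndhH. The unit of psbJ, psbL, psbF and psbE lies near 0, while petL and petG on the other side of psbE lie higher.

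The differences were also read in genome order. The stretch of psbK, psbI, atpA, atpF, atpH and atpI held values of 0.83, 0.59, 0.73, 1.20, 0.64 and 0.49. The genes psbJ, psbL, psbF and psbE, which form one unit, held 0.16, -0.046, 0.078 and 0.0057, and none of the 4 passed. In the unit of psbB, psbT, psbH, petB and petD, differences ranged from 0.085 for petB to 0.45 for psbT. The gene psbN, on the opposite strand between psbT and psbH, held 0.69. Probe sets read different parts of a transcript and its processed forms, and likeness along the genome was not tested.

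The classes were also read relative to the mean of the 66 members on the same array. The offset of a class from that mean depends on its probes, so it is compared between genotypes and not between classes. For PSI the log2 offset was 1.32 in WS (1.08 to 1.49 over 8 arrays) and 1.35 in lhy cca1 (1.29 to 1.44). For NDH the offsets were -1.005 in WS (-1.05 to -0.89) and -0.98 in lhy cca1 (-1.12 to -0.83). For the RNA polymerase they were -0.73 in WS (-0.91 to -0.61) and -0.93 in lhy cca1 (-1.15 to -0.76), and for ATP synthase 1.34 (1.07 to 1.54) and 1.16 (0.83 to 1.58). All 4 pairs of ranges overlap. No test was made on this scale. By single member, the largest upward differences of lhy cca1 from WS on this scale were 1.23 for petG, 0.64 for psbD, 0.58 for rpl16 and 0.55 for ndhK. The largest downward were -0.57 for petN, -0.53 for rps4 and -0.47 for rpoA. The petG probe set is near the floor of the array, and its offsets varied widely within each genotype (-5.91 to -2.43 in WS, -5.49 to -1.89 in lhy cca1). No member separated the 8 arrays of one genotype from the 8 of the other on this relative scale.

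At single times few members passed. Before dawn the members' median difference was 0.33, and 57 of 66 lay above 0. Only rpl22 passed, at 0.66 ± 0.144 (adjusted p = 0.0267), beside 0.934% of all tested probe sets called higher. The rpl22 probe set read 1582 and 1684 before dawn, then 1993 and 1632 (15 min), 2529.5 and 1877 (30 min) and lastly 1911 and 1730.2 (60 min) in WS. The lhy cca1 arrays read 2504 and 2657 before dawn, then 2423 and 2806 (15 min), 1909.8 and 2120.4 (30 min) and lastly 2044 and 1975 (60 min). Before dawn lhy cca1 replicate 2 lay above all 8 WS arrays and replicate 1 above all but 1 of them, and at 30 min the order of the replicate 1 arrays was the opposite. The call for rpl22 was lost in 4 of the 16 fits that left out 1 array. The count of members called was 0 without either WS array before dawn or without replicate 2 of lhy cca1 before dawn, and 8 without replicate 1 of lhy cca1 before dawn.

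At 15 min after dawn the median difference was 0.70, the highest of the 4 times, and 63 of 66 members lay above 0. Here 7 members passed, beside 1.14% of all tested probe sets called higher. The largest was rpl14 at 1.81 ± 0.305 (adjusted p = 0.00594), followed by rps15 at 1.62 ± 0.394 (adjusted p = 0.0472) and rpl16 at 1.60 ± 0.384 (adjusted p = 0.044). For rps2 the difference was 1.06 ± 0.233 (adjusted p = 0.0294), for psaC 1.04 ± 0.217 (adjusted p = 0.0234), for ndhA 0.86 ± 0.196 (adjusted p = 0.0355) and for ycf1 0.80 ± 0.166 (adjusted p = 0.0229). Both lhy cca1 arrays at 15 min carried the excess, with a plastid mean of 9.82 and 9.98 against 8.96 and 9.34 in WS. Their log2 25S rRNA signals were 7.98 and 9.15 against 6.16 and 6.15 in WS, and with that signal as a covariate 0 of 66 passed. At 15 min this signal and genotype went together, so the fit parts them only by the slope between replicate arrays. The loss of calls there does not tell the 2 apart.

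The 15 min count also turned on single arrays. It was 0 without replicate 1 of WS at 15 min, 0 without replicate 2 of lhy cca1 at 15 min, 2 without its replicate 1, 3 without replicate 2 of WS at 15 min and 4 without replicate 2 of WS at 30 min. It was 12 without either replicate of lhy cca1 before dawn or either replicate of WS at 60 min. At 30 min and at 60 min no member passed after adjustment, with limma. Over all tested probe sets 0.665% were called higher at 30 min and 2.39% at 60 min by the same rule. An unadjusted p under 0.05 was reached by 4 and 7 of 66 members, shares that were not counted over all tested probe sets. The members' medians at these times were 0.28 and 0.27, with 54 of 66 above 0 at both. At 60 min 1 member passed without replicate 2 of WS at 60 min, and 1 without replicate 1 of lhy cca1 at 60 min. That the genotype difference was larger at 15 min than before dawn was tested as an interaction, and no member passed it.

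**Figure D5:**
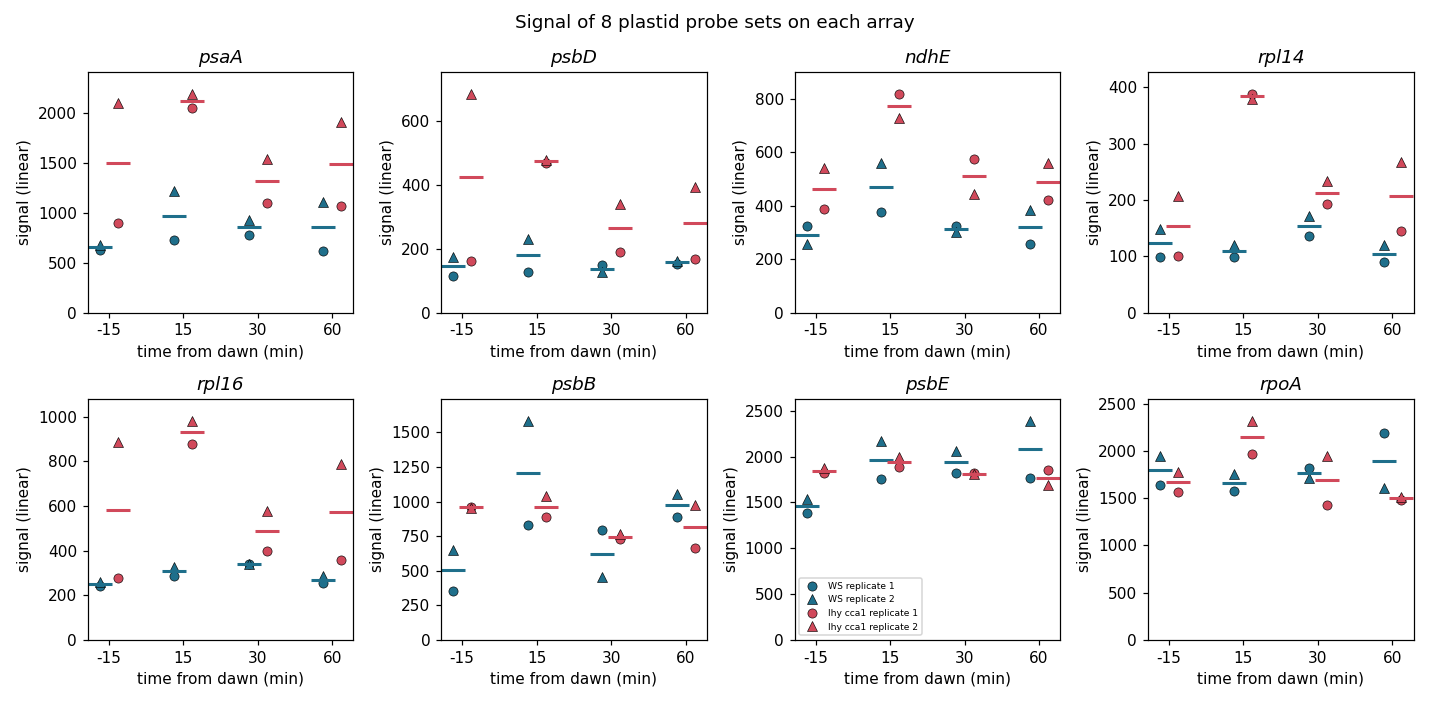
Deposited signal (linear scale, y axes from 0) of 8 plastid probe sets against time from dawn in minutes, with 1 point per array and short bars for the mean of the 2 arrays. psaA, psbD, rpl14 and rpl16 stand high on the lhy cca1 arrays at 15 min and on most lhy cca1 replicate 2 arrays, psbB and psbE have their lowest group mean in WS before dawn, and the rpoA arrays of both genotypes interleave.

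Around dawn few plastid genes changed past the threshold in wild type. In WS 2 of 66 members rose from 15 min before dawn to 60 min after it, and none fell. That share of rises was close to the 3.54% of all tested probe sets, so it does not set the members apart from the array. The 2 were the PSII genes psbB and psbE. The psbB probe set read 356 and 648 before dawn, then 828 and 1583 (15 min), 794 and 453 (30 min) and lastly 888 and 1056 (60 min) in WS. Its mean was lowest before dawn, and the 2 arrays at 15 min and at 30 min differed from each other almost as much as the times did. The rise was 1.01 ± 0.304 (adjusted p = 0.0477) at 60 min, and the changes of 1.25 ± 0.304 (adjusted p = 0.232) at 15 min and 0.32 ± 0.304 (adjusted p = 0.78) at 30 min did not pass. For psbE the signals were 1385 and 1534 before dawn, then 1759 and 2166 (15 min), 1820.3 and 2059.6 (30 min) and lastly 1768 and 2388 (60 min). Every WS array after dawn lay above both before it, with a rise of 0.50 ± 0.142 (adjusted p = 0.0373) at 60 min, and the changes of 0.42 ± 0.142 at 15 min and 0.41 ± 0.142 at 30 min did not pass.

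Neither gene rose past the threshold in lhy cca1. There psbB was 964 and 952 before dawn, then 886 and 1042 (15 min), 727 and 767 (30 min) and lastly 662 and 974 (60 min), a change of -0.25 ± 0.304 (adjusted p = 0.713) at 60 min. For psbE the values were 1817 and 1877 before dawn, then 1886 and 1992 (15 min), 1822 and 1808 (30 min) and lastly 1853 and 1689 (60 min), a change of -0.062 ± 0.142 (adjusted p = 0.864). The difference of lhy cca1 from WS before dawn was 1.00 ± 0.304 (adjusted p = 0.125) for psbB and 0.34 ± 0.142 (adjusted p = 0.281) for psbE, and neither passed. The difference between the genotypes in the change to 60 min was -1.27 ± 0.43 (adjusted p = 0.571) for psbB and -0.56 ± 0.201 (adjusted p = 0.618) for psbE, so a difference in response was not shown. The WS calls were fragile: psbB lost its call in 9 and psbE in 3 of 16 fits that left out 1 array. The count of 2 fell to 0 without replicate 1 of WS before dawn and to 1 without any 1 of 9 other arrays: replicate 2 of WS before dawn, both WS arrays at 60 min, and the lhy cca1 arrays before dawn, at 15 min and at 30 min.

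The other largest changes in WS at 60 min did not pass. They were 0.63 ± 0.367 (adjusted p = 0.344) for rpoB and 0.51 ± 0.396 (adjusted p = 0.508) for 1 probe set of rps12 among increases. Among decreases they were -1.69 ± 1.24 (adjusted p = 0.474) for petG, -1.33 ± 0.735 (adjusted p = 0.311) for rps14, -0.70 ± 0.342 (adjusted p = 0.246) for rpl36 and -0.60 ± 0.43 (adjusted p = 0.466) for psbN. The members' median changes in WS were 0.13 at 15 min, 0.060 at 30 min and 0.11 at 60 min. At 15 and at 30 min no member passed after adjustment, beside 0.047% and 0.907% of all tested probe sets called as rises. With limma, 5 and 4 of 66 had an unadjusted p under 0.05, shares that were not counted over all tested probe sets.

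In lhy cca1 nearly all members had a change above 0 at 15 min, but none passed the test. The median change was 0.42, against 0.013 over all tested probe sets, and 64 of 66 members lay above 0. After adjustment 0 passed, beside 0.0202% of all tested probe sets called as rises. With limma, 24 of 66 had an unadjusted p under 0.05, a share that was not counted over all tested probe sets. The class medians were 0.90 for RNA polymerase, 0.51 for the large ribosomal subunit, 0.44 for PSI, 0.40 for PSII and 0.06 for ATP synthase. The arrays before dawn differed from each other, with plastid means of 9.04 and 9.76, against 9.82 and 9.98 at 15 min. Without replicate 2 of lhy cca1 before dawn, 4 members passed at 15 min. By 30 and 60 min the medians were -0.050 and -0.014, and 0 members passed at either time, with 1 of 66 at an unadjusted p under 0.05 at each. At 60 min 1 member passed without replicate 1 of lhy cca1 before dawn, and 1 without replicate 1 of lhy cca1 at 60 min. Over all tested probe sets 0.76% and 4.32% were called as rises. The largest changes at 60 min were 0.64 ± 0.345 (adjusted p = 0.324) for ndhH and 0.45 ± 0.305 (adjusted p = 0.463) for rpl14 upward, and -0.94 ± 0.471 (adjusted p = 0.273) for ndhB and -0.48 ± 0.346 (adjusted p = 0.497) for ycf3 downward.

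The genotypes were also compared in their change from before dawn, as a difference of differences. No member passed at 15, 30 or 60 min, and over the whole array 0, 0 and 3 probe sets did (0.0202% at 60 min). With limma, 7, 3 and 3 of the 66 members had an unadjusted p under 0.05, shares that were not counted over all tested probe sets. At 60 min the 4 members of smallest adjusted p were psbB, psbE, rpl22 at -0.52 ± 0.203 (adjusted p = 0.674) and rps2 at -0.65 ± 0.329 (adjusted p = 0.743). The dawn comparisons of one genotype share their before-dawn arrays, and the genotype comparison at that time shares them too.

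The block also holds probe sets without a plastid gene. Of the 10 that were tested, 1 was higher in lhy cca1 over the 4 times, and their median difference was 0.021. All 6 mitochondrial probe sets were tested and none passed. They were nad9 (-0.086 ± 0.102, adjusted p = 0.615), nad6 (0.044 ± 0.181, adjusted p = 0.9), cox2 (-0.20 ± 0.158, adjusted p = 0.416), ccb206 (-0.053 ± 0.179, adjusted p = 0.875), ccb452 (-0.27 ± 0.0933, adjusted p = 0.0523) and 1 that lists mitochondrial rps3 and rpl16 (0.30 ± 0.142, adjusted p = 0.167). These encode subunits of respiratory complexes, factors of cytochrome c maturation and mitochondrial ribosomal proteins. The probe set called was 244981_at, for which no gene is listed, with a difference of 0.59 ± 0.107 (adjusted p = 0.00113). It also passed at 15 min, at 0.98 ± 0.215 (adjusted p = 0.0294). By its number it lies between the members of the block, but it is given no name here. AT2G07708, of chromosome 2, gave 0.36 ± 0.185 (adjusted p = 0.194), and the unlisted 244979_at and 244990_s_at gave 0.24 ± 0.0899 (adjusted p = 0.0793) and -0.0032 ± 0.396 (adjusted p = 0.997).

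Few nuclear genes that serve the plastid were named on the array. Of 29 nuclear genes listed for the thylakoid complexes, 7 were tested, and 1 was higher and 1 lower over the 4 times, with a median of 0.15. Over all tested probe sets 10.9% were called higher and 7.35% lower. PSAN, a PSI subunit, was higher by 0.26 ± 0.0608 (adjusted p = 0.00678), with 3050 to 3757 in WS and 3595 to 5051 in lhy cca1. NdhN, an NDH subunit, was lower, with a difference of -0.46 ± 0.0802 (adjusted p = 0.000783), whereas 7 of its 11 plastid-encoded partners were higher. The other nuclear NDH gene tested, NdhL, did not pass at -0.047 ± 0.0654 (adjusted p = 0.67). NdhN spanned 356 to 507 in WS and 248 to 388 in lhy cca1. Both genes of the plastid ribosome that were tested, of 19 listed, did not pass, and their median was 0.032. For plastid transcription 1 of 20 listed genes was named, AT5G15700, which encodes a phage-type polymerase. It was called higher at 1.07 ± 0.341 (adjusted p = 0.0382), but its signal of 3.70 to 26.8 exceeded the 40th percentile on only 2 of 16 arrays, so this difference is one of values near the floor. None of 6 listed genes of plastid RNA turnover was named.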

How the data were processed

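Total RNA of whole seedlings was read on 16 ATH1 arrays in 8 groups of 2. What the authors deposited is linear-scale intensity, made with MAS5 and GCOS per the submitters' processing notes, which name no versions. Labelling was one-cycle, per the labels' protocols. As read from the deposited values, each array had been scaled to a trimmed mean of 100.01.

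From these, log2 intensities were computed without an offset. After removal of 64 control probe sets, 14878 of 22746 lay above their array's 40th percentile on at least 2 arrays and were tested. Group means, 8 in number, were fitted with limma 3.58.1 under R 4.3.3 (eBayes with an intensity trend, 8 residual degrees of freedom). All adjusted p-values are limma's with Benjamini-Hochberg adjustment over all tested probe sets, 2-sided, with a threshold of 0.05, and ± is the standard error of the fit. The number of arrays limits the precision. Unadjusted p-values of limma were counted for the members only, so those counts have no share over all tested probe sets beside them. A group is called dim where it lay below the percentile on all its arrays. The fit was tested on simulated arrays drawn independently of each other, with changes larger than the members' median difference. Deviations shared between arrays were not covered by that test.

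Genes were named from the array's annotation table and symbols and gene order taken from a TAIR10.1 gene table. Named were, per function class, up to 4 members of smallest adjusted p for the genotype mean, those of largest and smallest difference and the one of highest signal, the rpo genes, psbA and rbcL, up to 4 of the largest changes at 60 min each way, and others to account for all members. The members and gene lists were chosen with earlier results of these data known. Other normalizations, filters, offsets, a replicate block, a 25S rRNA covariate and fits without single arrays were run. Fits without the 15 min arrays and of each replicate number alone were chosen after seeing the data. No sequences are shown.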

Additional observations from a re-analysis of the deposited data

How the results depend on the processing

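The members called for the genotype mean (36 in the reported fit) numbered 22 without the variance trend, 6 with the 25S rRNA covariate, 3 without the 4 lhy cca1 replicate 2 arrays, 7 without the 15 min arrays and 7 from replicate 1 alone, and between 26 and 45 without any 1 array. Other settings gave 26 to 46, the highest with the replicate number as a block. Correlations of same-numbered deviations ran from -0.016 to 0.27 and were over 0.1 in 15 of 28 pairs of groups (5 of 6 within lhy cca1). Not every pair was over 0.1, and the labels name no shared batch, so the block was kept as an alternative. Whether the numbers mark a shared batch was not tested. Before dawn, the count of 1 became 0 without the filter, without the variance trend, with the 25S rRNA covariate or without the lhy cca1 replicate 2 arrays, 6 with the replicate block, and 0 to 8 without 1 array. At 15 min, the count of 7 became 4 with median centring, 3 without the filter, 1 without the variance trend, 28 with the replicate block, 0 with the 25S rRNA covariate, 3 without the lhy cca1 replicate 2 arrays and 0 to 12 without 1 array. At 60 min, the count of 0 became 3 with the replicate block and 0 to 1 without 1 array. For WS from before dawn to 60 min, the count of 2 became 0 with quantile normalization, without the filter, without the variance trend or without the lhy cca1 replicate 2 arrays, 1 with the 25S rRNA covariate, and 0 to 2 without 1 array. For lhy cca1, the count of 0 became 2 at 15 min with the replicate block and 2 without its replicate 2 arrays (0 to 4 without 1 array), and at 60 min 1 with quantile normalization (0 to 1 without 1 array). The causes were not tested.

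Directions of members that did not pass turned as follows. The genotype mean of atpB was -0.050 with quantile normalization, -0.0079 with median centring, -0.0086 with the 25S rRNA covariate, -0.010 without the lhy cca1 replicate 2 arrays and -0.026 in replicate 1. That of petB was -0.0027 with quantile normalization and -0.0018 with median centring. For psbA it was -0.14, -0.16 and -0.15 with the covariate, without the replicate 2 arrays and in replicate 1. For psbE it was -0.081 with median centring and -0.13 in replicate 2 (-0.048 to 0.060 without 1 array), and for rpl33 -0.011 with median centring and -0.060 in replicate 1. For rpoA it was 0.094 in replicate 2 (-0.091 to 0.021 without 1 array), for rpoC2 -0.075 and for the RNA polymerase median -0.017 without the lhy cca1 replicate 2 arrays. In lhy cca1 to 60 min, ycf3 was 0.12 and psbD 0.044 without those arrays. Without 1 array, rpl14 ran from -0.070 to 0.96, ycf3 from -1.28 to 0.33, rps14 from -1.06 to 0.16 and psbD from -1.42 to 0.65 there, and petG in WS from -3.44 to 0.050. With 2 arrays per group, the standard errors of members near the floor of the array were 0.62 for petG, 0.37 for rps14 and 0.24 for ndhB in the genotype mean.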

Other observations

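The size of the genotype difference varied with the signal of the probe set. Among the 22 members of lowest mean signal (17.2 to 346) the median log2 difference was 0.59 and 14 were called, among the middle 22 (379 to 1626) it was 0.45 and 14 were called, and among the 22 of highest signal (1700.1 to 7617) it was 0.21 and 8 were called. Signals of different probe sets differ with the probe as well as with the transcript.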
